A study of Xenopus laevis with 6 samples.

Results

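The genes for NMDA-type glutamate receptor subunits were examined in RNA from Xenopus laevis tadpole optic tectum, the midbrain region that receives retinal axons. Members were chosen by name: every gene of the deposited annotation called grin1, grin2a, grin2b, grin2c, grin2d or grin3a once the suffix .L or .S was removed. X. laevis is allotetraploid, and .L and .S name the copies from its long and its short subgenome. Of the 6 symbols, 5 had an annotated gene, each with an L and an S copy, which gave 10 members among 45099 genes. No gene carried the plain name grin3a. Of the 10 copies, 8 had enough reads to be tested, and both grin2c copies did not.

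NMDA receptors are ion channels opened by glutamate together with a co-agonist, glycine or D-serine, and they pass calcium once depolarization has lifted a magnesium block. Each receptor holds obligatory GluN1 subunits, made from grin1, with GluN2 subunits from the grin2 genes or GluN3 subunits from the grin3 genes. The GluN2 subunit sets how long the channel stays open and how strongly magnesium blocks it. In mammals GluN2B and GluN2D prevail early in development and GluN2A and, in cerebellum, GluN2C later. In the tadpole tectum these receptors take part in transmission from retinal axons and in the growth of tectal dendrites.

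The labels name stage 46 and no strain or allele, and 3 libraries were made from each population. The NPC libraries are neural progenitor-enriched and came from dark-exposed animals. The IN libraries are immature neuron-enriched and came from animals exposed to visual stimulation. Visual condition and population therefore cannot be told apart, and the sources used here do not give the enrichment method. Separate animals or pools are not named for the 3 libraries of a group, so a p-value reflects the spread of these samples alone, which may be technical.

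The libraries held 8422751 to 9914191 counted reads. In summed level, 16 copies of neuronal markers such as elavl3 and snap25 reached 4899 to 8930 CPM (counts per library size, TMM-scaled) in NPC and 4104 to 6664 in IN. The 14 copies of progenitor and radial glia markers such as sox2 and fabp7 summed to 1051 to 2807 CPM in NPC and 1541 to 3186 in IN. Both marker sums overlapped between the groups, so neither label is set apart by them. By copy, 12 of 16 neuronal markers had a log2 fold change (IN minus NPC) below 0, with a median of -0.36. Of the 14 progenitor copies 9 were above 0 (median 0.08), and the median over all tested genes was -0.03. The neuronal markers thus leaned lower in IN, opposite to its label, but so did midbrain markers (8 of 10 tested copies below 0, median -0.23). The share of all tested genes below 0 was not worked out. Of the neuronal copies 1 had an unadjusted p under 0.05 by edgeR, as did 3.43% of all tested genes. After adjustment 0 of these copies passed, so the lean is not read as a result about the label. Midbrain markers such as en2 and pax7 summed to 423 to 835 and 351 to 672 CPM, and the markers gfap, glul, syt1 and dcx were not found under those names. Markers of oligodendrocytes (96.2 to 150 CPM over both groups), microglia and leukocytes (8.75 to 98.2), endothelium (16.3 to 113), erythroid cells (0.206 to 136), retina and lens (0 to 35.5) and skeletal muscle (14.4 to 31.9) were lower. These sums lack aif1, hba2, acta1, rho, rcvrn and crygd, which were not found under those names. No marker sum is corrected for gene length or for the number of copies in its list, so the order of the lists is only rough. Each of these sums overlapped between the groups. Microglia and leukocyte markers reached 23.8 CPM in NPC and 98.2 in IN, endothelial ones 113 and 54.4, and erythroid ones 136 and 17.1. Their median log2 fold changes, over 3 tested copies each, were 3.05, -1.62 and -2.35. The medians of the other 3 lists lay between -0.40 and 0.04. The copies hba1.L, hba1.S, hbg1.S and hbg2.S had 0 reads, so low sums alone do not show that such cells were absent. In such bulk samples, fewer cells of a type and less RNA per cell cannot be told apart.

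The obligatory subunit gene is grin1. grin1.L (Xelaev18038140m.g, build 9.1, 8L, 842174 to 875056, minus strand) had 1784, 2415 and 479 reads in NPC libraries 1 to 3, and IN libraries 1 to 3 had 1931, 710 and 1632. NPC library 3 was the lowest and NPC library 2 the highest, so the groups overlapped. grin1.S (Xelaev18041409m.g, 8S, 26389958 to 26418308, plus strand) had 2079, 529 and 1519 NPC reads and 4288, 1495 and 827 IN reads. Here IN library 1 was the highest and NPC library 2 the lowest. Levels of grin1.L were 184 ± 121 CPM in NPC and 144 ± 63.0 in IN (SD, n = 3 each), a log2 fold change (IN minus NPC) of -0.36 (SE 0.64, 95% interval -1.68 to 0.97). Levels of grin1.S were 159 ± 82.1 and 220 ± 179 CPM, a log2 fold change of 0.46 (SE 0.64, 95% interval -0.88 to 1.81). Neither passed edgeR's quasi-likelihood test (unadjusted p 0.581 and 0.479), and without NPC replicate 2 the sign of grin1.L turned (0.21), as did that of grin1.S without IN replicate 1 (-0.43).

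Which grin1 copy had more reads differed between libraries of the same group. Reads of the L copy made up 82.0% (95% Wilson interval 80.6% to 83.4%) of grin1 reads in NPC library 2 and 24.0% (22.2% to 25.9%) in NPC library 3, libraries of the same group. In the IN libraries the L share was 31.1%, 32.2% and 66.4%. These are shares of mRNA reads. In STAR reads within coding sequence the L share was 45.7%, 82.4% and 30.2% in NPC and 35.6%, 51.4% and 74.0% in IN. Wilson intervals here cover counting error only, and the reads carry no molecular identifiers, so they need not be separate molecules. Summed over both copies, grin1 was at 409, 368 and 253 CPM in NPC and 614, 224 and 253 in IN. The log2 fold change of the sum was 0.10 (SE 0.49, 95% interval -0.92 to 1.11). The first 517 bases of grin1.L, at its 5′ end, overlap loc100216141.L, a gene on the opposite strand (8L, 874540 to 881116). The strand setting of the counting is not given, and this neighbour had 162, 1 and 0 NPC reads and 301, 0 and 6 IN reads.

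**Figure D1:**
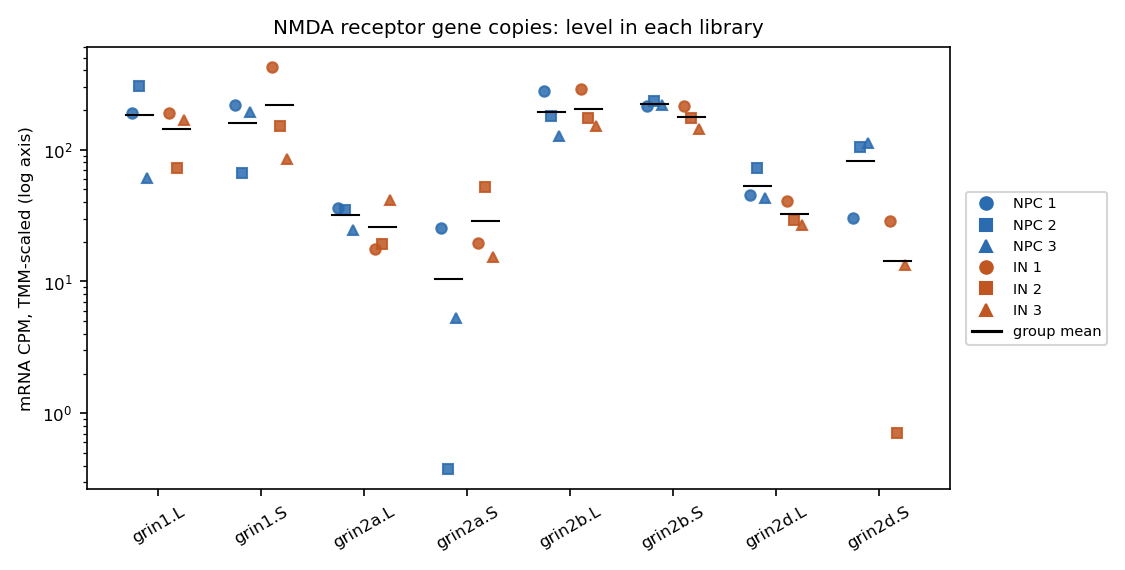
Level of each tested NMDA receptor gene copy in every library, as TMM-scaled CPM of STAR mRNA counts on a log axis; blue points are NPC and orange points IN libraries, marker shape gives the library number and black bars the group mean. grin2d.S spans 30.3 to 112 CPM in NPC and 0.710 to 28.9 in IN, while grin2b.S stays between 144 and 233 CPM in all 6 libraries.

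GluN2B, long-lasting in its currents and known for its binding of the kinase CaMKII, is encoded by grin2b. grin2b.L (Xelaev18023509m.g, 4L, 105907984 to 106188713, minus strand) had 2616, 1446 and 997 NPC reads and 2931, 1704 and 1466 IN reads. Library 1 was the highest in both groups. grin2b.S (Xelaev18025529m.g, 4S, 86764815 to 87045064, minus strand) had 2019, 1866 and 1723 NPC reads and 2190, 1722 and 1403 IN reads, the most even member across libraries. Its level was 222 ± 10.2 CPM in NPC and 178 ± 36.0 in IN, with 216 CPM in IN library 1 inside the NPC range of 214 to 233. On the log2(CPM + 1) scale its spread between replicates was 0.21, against a median of 1.28 over the 19158 tested genes, and 0.376% of tested genes had a smaller spread. Log2 fold changes were 0.07 (SE 0.55, 95% interval -1.08 to 1.22) for grin2b.L and -0.31 (SE 0.52, 95% interval -1.40 to 0.77) for grin2b.S, and neither passed (unadjusted p 0.899 and 0.556). A gene of unknown name inside grin2b.S, on the opposite strand, had 0 reads in all 6 libraries.

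GluN2A, the faster subunit of mature synapses in mammals, is encoded by grin2a. grin2a.L (Xelaev18045127m.g, 9_10L, 88026565 to 88105810, minus strand) had 339, 278 and 195 NPC reads and 179, 189 and 401 IN reads, with IN library 3 the highest. Its levels were 31.8 ± 6.18 and 26.0 ± 13.2 CPM, a log2 fold change of -0.29 (SE 1.07). grin2a.S (Xelaev18047479m.g, 9_10S, 78916119 to 78988173, minus strand) had 240, 3 and 42 NPC reads and 198, 511 and 150 IN reads. NPC library 2 was the lowest by far and IN library 2 the highest. Its levels were 10.4 ± 13.3 and 28.9 ± 19.9 CPM, a log2 fold change of 1.48 (SE 1.45, 95% interval -1.55 to 4.51), and neither copy passed (unadjusted p 0.792 and 0.321, edgeR). Without NPC replicate 1 the value for grin2a.S was 3.33, and without IN replicate 2 it was 0.77.

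GluN2D, known for very slow currents and weak magnesium block, is encoded by grin2d. grin2d.L (Xelaev18036163m.g, 7L, 110891427 to 111029157, minus strand) had 427, 578 and 337 NPC reads and 413, 289 and 260 IN reads. The NPC libraries stood at 45.2, 72.2 and 42.6 CPM after scaling, above the IN libraries at 40.8, 29.3 and 26.8. grin2d.S (Xelaev18037877m.g, 7S, 81952693 to 82063813, minus strand) had 286, 836 and 885 NPC reads and 293, 7 and 130 IN reads. Its scaled levels were 30.3, 104 and 112 CPM in NPC and 28.9, 0.710 and 13.4 in IN, so the groups only just separated, between NPC library 1 and IN library 1. Of the 8 tested copies, these 2 did not overlap between groups, both lower in IN; over all tested genes 8.76% did not overlap and 4.06% were without overlap and lower in IN. The margin of grin2d.L rests on the scaling, since its groups overlapped with upper-quartile scaling and with no scaling factor, while those of grin2d.S stayed apart under each of these.

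By edgeR the log2 fold change was -2.52 for grin2d.S (SE 1.10, 95% interval -4.80 to -0.23, unadjusted p 0.0324) and -0.72 for grin2d.L (SE 0.90, 95% interval -2.60 to 1.15, unadjusted p 0.430). The adjusted p over all genes was 1.00 for both, by edgeR with Benjamini-Hochberg adjustment, so neither passed. Over all tested genes 3.43% had an unadjusted p under 0.05, and 1.93% had one and were lower in IN; among the 8 copies grin2d.S alone did. The exact permutation p (2-sided) was 0.1 for grin2d.L and for grin2d.S, the smallest that 3 against 3 can give. Groups without overlap always give this value, so it adds nothing to the lack of overlap. Leaving out 1 library at a time, the grin2d.S value ran from -3.54 (without IN replicate 1) to -1.96 (without IN replicate 2, the library with 7 reads), and the adjusted p was at least 0.769. Across all alternatives its adjusted p was lowest with DESeq2, at 0.467. Summed over both copies grin2d was at 75.5, 177 and 155 CPM in NPC and 69.7, 30.03 and 40.2 in IN, a log2 fold change of -1.52 (SE 0.70, unadjusted p 0.0399, adjusted p 1.00, edgeR), where 3.48% of summed genes had an unadjusted p under 0.05.

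GluN2C, a subunit of cerebellar granule cells in mammals, is encoded by grin2c. grin2c.L (Xelaev18044031m.g, 9_10L, 36207917 to 36234314, minus strand) had 10, 1 and 0 NPC reads and 0, 2 and 2 IN reads, and grin2c.S (Xelaev18046676m.g, 9_10S, 32786390 to 32809156, minus strand) had 0, 0 and 0 and then 0, 1 and 1. No read of either copy fell in coding sequence in any of the 6 libraries, where a count of 0 allows up to 3 reads per library. Transcripts of grin2c were thus not detectable in coding sequence at this depth.

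Of the GluN3 subunits, which lower calcium passage, the annotation holds grin3b and a pair called grin3a-like, both outside the naming rule. The grin3a-like pair was added after its values were seen, while grin3b was on a list fixed by role. grin3a-like.L had 693, 143 and 226 NPC reads and 445, 429 and 96 IN reads, and grin3a-like.S had 244, 39 and 42 and then 216, 112 and 13. Both overlapped between groups. grin3b.L had 12, 0 and 0 reads and then 1, 0 and 0, and grin3b.S had 0, 1 and 0 and then 5, 74 and 5, so that a single IN library held most of its reads.

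Much of what was counted for these genes lay outside coding sequence. The mRNA counts hold reads from the whole span of a transcript: among genes with no annotated untranslated region, the median share of reads in coding sequence was 100% for 433 genes with 1 coding exon and 72.7% for 2952 genes with several. Ordered by intron length into 5 groups of equal size, the latter ran from 98.3% where introns were shortest to 43.1% where they were longest. NMDA receptor genes are long, from 22767 bases for grin2c.S to 280730 for grin2b.L, with 2652 to 4350 coding bases. Summed over members, the coding share was 22.9%, 37.7% and 57.8% in NPC libraries 1 to 3, and IN libraries 1 to 3 had 34.3%, 39.0% and 49.1%. Over all genes it was 45.1%, 55.1% and 61.0% in NPC libraries 1 to 3 and 45.9%, 54.0% and 60.9% in IN libraries 1 to 3. The members were thus below all genes in each library. Libraries numbered 1 were the lowest in both groups and both measures, and over all genes libraries of the same number were close.

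**Figure D2:**
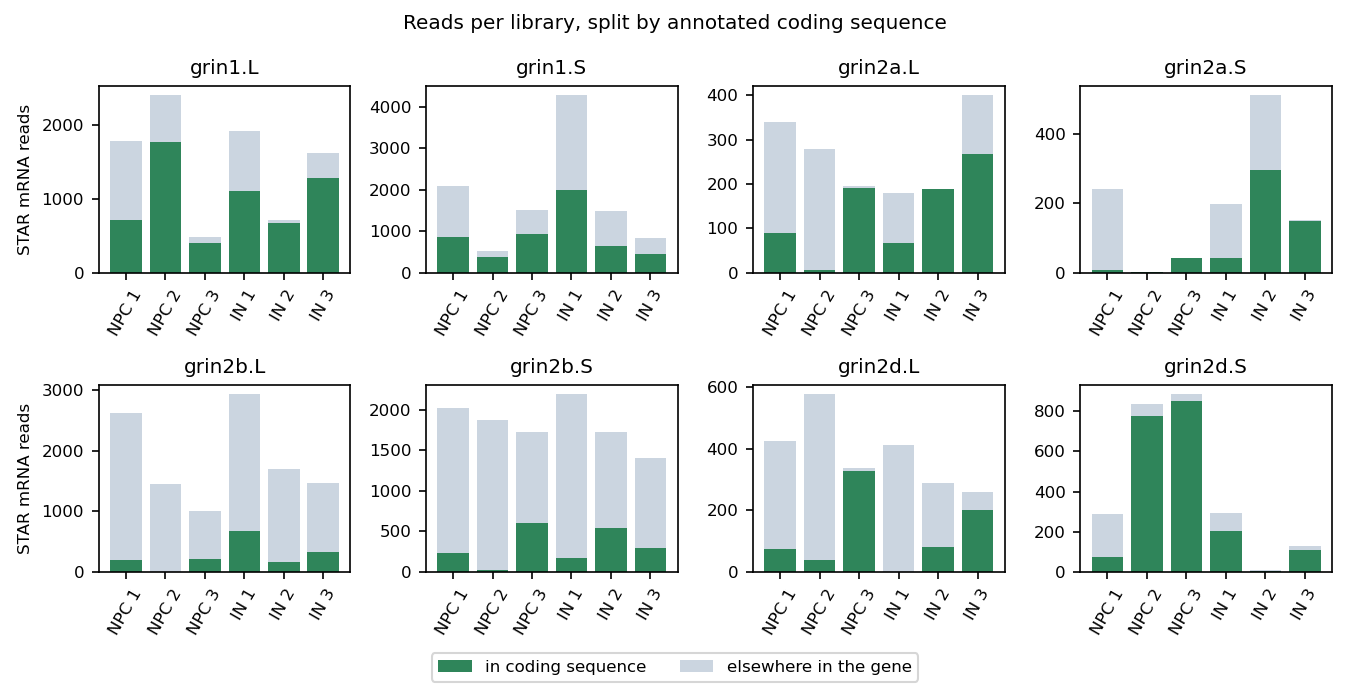
STAR mRNA reads of each tested copy in every library, split into reads within annotated coding sequence (green) and reads elsewhere in the gene (grey), which include introns and any annotated untranslated region; each panel has its own linear axis from 0. For grin2b.L the green part is at most 676 of 2931 reads, while for grin2d.S in NPC library 3 it is 852 of 885.

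The split differed from library to library within a gene. For grin2a.L, with no annotated untranslated region, 6 of 278 reads were coding in NPC library 2 and 189 of 189 in IN library 2. For grin2d.L, 328 of 337 reads were coding in NPC library 3 and 0 of 413 in IN library 1. For grin2d.S, 74 of 286 were coding in NPC library 1, 775 of 836 in NPC library 2 and 852 of 885 in NPC library 3, and in IN 205 of 293, 3 of 7 and 109 of 130. Coding reads of grin2b.L numbered 196, 5 and 208 in NPC and 676, 162 and 332 in IN, and those of grin2b.S 227, 22 and 602 and then 172, 542 and 290. NPC library 2 thus had very few coding reads for both copies of grin2b and of grin2a (6 and 1), while it held 1773 for grin1.L. The steady mRNA level of grin2b.S was made up mostly of reads outside coding sequence, which for this copy include 3624 bases of annotated untranslated exon.

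Counting coding sequence alone changed the direction of some members and the call of none. grin2a.S had 9, 1 and 42 NPC coding reads and 43, 294 and 149 IN coding reads. Per kb of coding sequence the NPC libraries stood at 0.580, 0.0571 and 2.09 CPM, below the IN libraries at 2.50, 14.3 and 6.20, although NPC library 3 and IN library 1 were close. It was the only one of 8 tested copies without overlap in coding counts, where 9.63% of all tested genes had none. Its log2 fold change was then 3.06 (SE 1.99, 95% interval -1.07 to 7.20, unadjusted p 0.138, adjusted p 1.00, edgeR). For grin2d.S it was -2.46 (SE 1.28, unadjusted p 0.0669), with coding levels of 4.81, 44.6 and 42.7 CPM per kb in NPC and 12.0, 0.147 and 4.57 in IN, so that the groups overlapped. Signs turned for grin2a.L (0.63) and grin2b.S (0.08), and grin2b.L moved to 1.39 (SE 1.29); of the 8 copies none had an unadjusted p under 0.05, where 3.51% of all genes did. With L and S copies summed, a choice made after the data were seen, coding counts gave -1.998 for grin2d (SE 0.93, 95% interval -3.93 to -0.06, unadjusted p 0.0438, adjusted p 1.00, edgeR), where 3.61% of summed genes had an unadjusted p under 0.05. The summed coding levels of grin2d overlapped, at 37.5, 184 and 232 CPM in NPC and 47.2, 16.3 and 51.1 in IN. Reads outside coding sequence, tested on their own as a choice made after the data were seen, gave -1.59 (SE 1.70) for grin2d.S and 0.81 (SE 1.91) for grin2a.S.

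**Figure D3:**
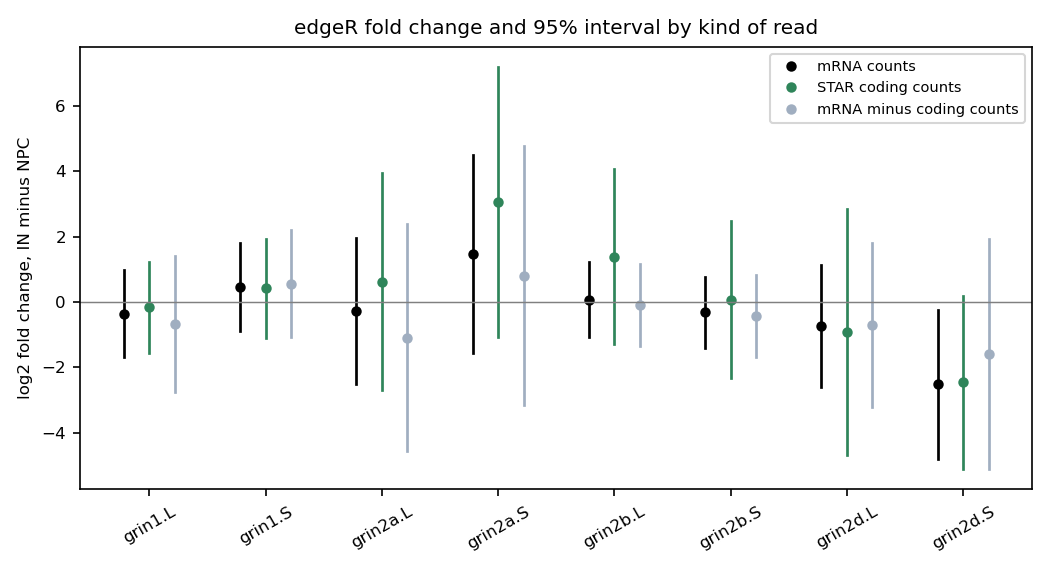
Log2 fold change, IN minus NPC, of each tested copy from edgeR, with its 95% interval as a vertical line, for mRNA counts (black), STAR coding counts (green) and mRNA reads outside coding sequence (grey). All intervals but that of grin2d.S in mRNA counts (-4.80 to -0.23) include 0, and its coding interval runs from -5.11 to 0.19.

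Levels can be compared between genes only per length, and coding reads per kb of coding sequence were used because the length behind the mRNA counts is not settled. On this scale, over all 6 libraries, grin1.L (77.4 ± 41.2 CPM per kb, SD) and grin1.S (71.9 ± 53.9) came first, then grin2d.S (18.1 ± 20.1), grin2b.S (14.3 ± 9.73), grin2b.L (12.8 ± 12.1), grin2a.L (6.64 ± 4.06), grin2d.L (5.74 ± 5.60) and grin2a.S (4.28 ± 5.35). Every neighbouring pair in this order differed by less than the larger of its SDs. At the widest step grin1.S was above grin2d.S in 5 of 6 libraries. Both grin1 copies exceeded every grin2 copy in 4 of the 6. The summed grin1 level was 3.69, 3.71 and 0.929 times the summed grin2 level in the NPC libraries and 4.22, 1.61 and 1.97 times in the IN libraries, so the groups overlapped.

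Shares of the GluN2 genes in the summed grin2 level also depended on which reads were counted. In coding levels per kb, grin2d made up 23.1%, 96.3% and 54.8% in NPC and 19.0%, 6.82% and 23.6% in IN, with overlap. In mRNA levels per kb of annotated exon the NPC libraries stood at 15.97%, 37.2% and 39.2% and the IN libraries at 15.4%, 8.92% and 13.6%, apart by less than 1 percentage point. Exon length is not the length behind these reads, which include introns, so the size of the mRNA shares is not settled. With no length correction the grin2d share was 12.0% to 29.2% in NPC and 6.69% to 11.4% in IN. The grin2b share was 61.2%, 2.89% and 34.4% in NPC and 70.9%, 53.1% and 44.0% in IN in coding levels, and 53.2% to 70.6% and 66.7% to 76.2% in mRNA levels. The grin2a share was 15.7%, 0.823% and 10.9% in NPC and 10.1%, 40.03% and 32.3% in IN in coding levels. The share of grin2a within grin2a plus grin2b, the pair whose balance shifts with age in mammals, was 20.4%, 22.2% and 24.0% in NPC and 12.5%, 43.0% and 42.3% in IN. IN libraries 2 and 3 were thus above the NPC libraries and IN library 1 below them. The NPC library 2 value rests on 7 grin2a and 27 grin2b coding reads, too few to place it closely.

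**Figure D4:**
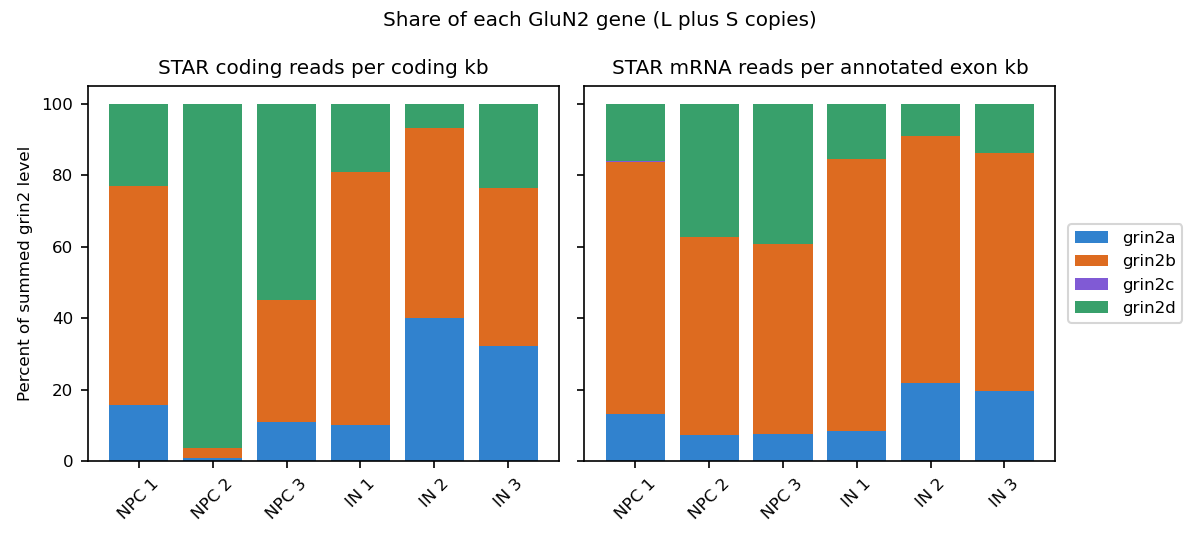
Percent of the summed grin2 level contributed by grin2a, grin2b, grin2c and grin2d (L plus S copies) in each library, from coding reads per coding kb (left) and from mRNA reads per kb of annotated exon (right). In coding levels grin2d ranges from 6.82% in IN library 2 to 96.3% in NPC library 2. The right panel divides reads that include introns by exon length, so the size of its shares is not settled.

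In mRNA reads the balance of L and S copies varied among replicates for grin1, grin2a and grin2d and less for grin2b. The L copy gave 58.5%, 98.9% and 82.3% of grin2a reads in NPC and 47.5%, 27.0% and 72.8% in IN. For grin2d it gave 59.9%, 40.9% and 27.6% in NPC and 58.5%, 97.6% and 66.7% in IN. For grin2b it gave 36.7% to 56.4% in NPC and 49.7% to 57.2% in IN. In these mRNA reads library 1 was close in both groups for grin2b and grin2d. Each of these shares overlapped between groups. In STAR coding reads grin2b varied as well, its L share being 46.3%, 18.5% and 25.7% across the NPC libraries and 79.7%, 23.0% and 53.4% across the IN libraries. For grin2d the coding share of the L copy was 49.7%, 4.79% and 27.8% in NPC and 0%, 96.5% and 64.8% in IN. In coding reads library 1 was thus not close between groups for either gene. For grin2a the coding share of the L copy was 82.0% to 90.9% in NPC, where library 2 held 7 such reads, and 39.1% to 64.2% in IN. The sources used here do not say how reads matching both copies were assigned, which leaves single-copy values uncertain.

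**Figure D5:**
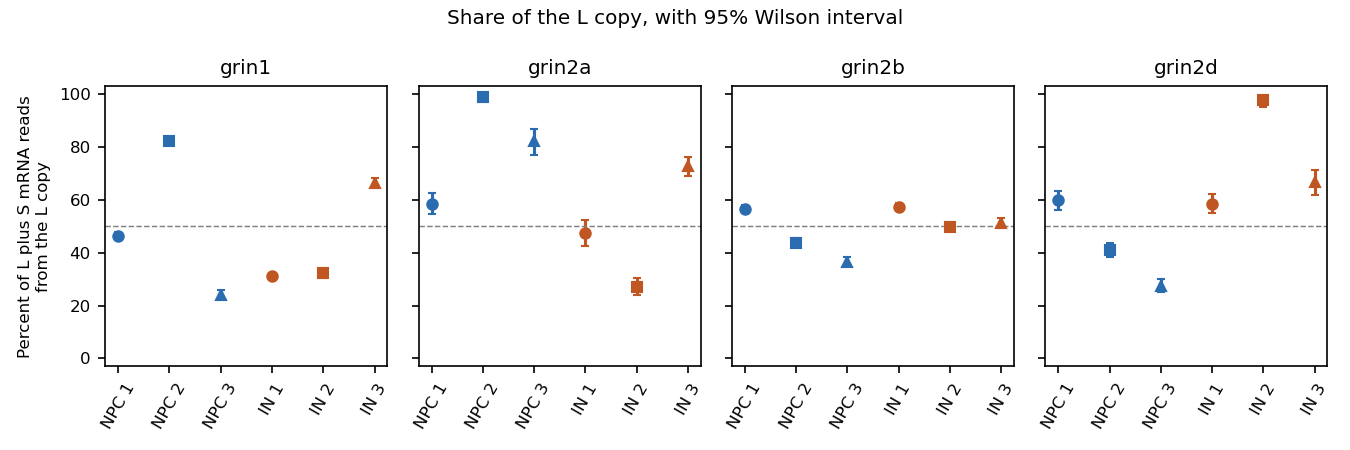
Percent of L plus S mRNA reads that came from the L copy, per library, with 95% Wilson intervals (counting error only); blue is NPC, orange IN, and the dashed line marks 50%. For grin1 the share runs from 24.0% to 82.0% within NPC, far beyond the intervals.

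Genes that anchor, carry, modify or serve NMDA receptors were read from lists fixed by role, 82 symbols of which 69 were annotated, with 129 copies. Of the 119 copies tested, 0 passed edgeR's test after adjustment, and 3 had an unadjusted p under 0.05 (3.43% of all tested genes did), all lower in IN. DESeq2 called 88 genes (0.459%) in the whole table, none of them a grin copy, and its calls were not counted for these lists. Fold changes were above 0 for 55 and below 0 for 64, and the list medians ran from -0.20 to 0.10 against -0.03 over all tested genes. The 3 were shank1.S and homer3.S among anchors and rasgrf2.L among calcium effectors. Reads given below for list genes are mRNA counts, introns included, unless called coding. Other receptor genes, grin3b and the NMDA receptor-associated protein grina, had 0 of 4 copies tested.

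Among 29 tested anchor and scaffold copies, 13 had a fold change above 0. shank1.S, a master scaffold of the postsynaptic density, had 1202, 3008 and 1079 NPC reads and 1122, 516 and 768 IN reads (log2 fold change -1.40, SE 0.63, unadjusted p 0.0366, adjusted p 1.00). homer3.S, which links scaffolds to metabotropic receptors, had 54, 472 and 265 reads and then 44, 29 and 42 (log2 fold change -3.08, SE 1.46, adjusted p 1.00). Both had their highest value in NPC library 2. There 0 of the 472 homer3.S reads were coding, against 251 of 265 in NPC library 3. Among the 15 tested transport copies 4 were above 0: kif17.L, a motor that carries GluN2B in mouse dendrites, had 22, 0 and 0 reads and then 45, 110 and 169, and kif5a.L, a kinesin heavy chain, had 772, 283 and 559 and then 2389, 382 and 2042.

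Among 26 kinase and phosphatase copies 11 were above 0. The copies of src, a tyrosine kinase that enhances NMDA currents in mammals, had fold changes of opposite sign: src.L had 394, 988 and 447 NPC reads and 221, 192 and 290 IN reads, and src.S had 138, 115 and 91 and then 628, 552 and 225. Both were without overlap in mRNA reads, as were 8.76% of all tested genes in CPM. They were picked for the lowest p of their list, which favours such separation. Coding reads overlapped for both. They were 211, 132 and 48 against 125, 36 and 111 for src.L, and 13, 8 and 0 against 441, 172 and 2 for src.S. The log2 fold change was -1.64 (SE 0.89) for src.L and positive for src.S, and neither passed (unadjusted p 0.0788 and 0.111, edgeR). Among 22 calcium and Ras effectors 12 were above 0. rasgrf2.L, a calcium-dependent Ras activator, had 1095, 819 and 1389 NPC reads and 492, 249 and 391 IN reads (log2 fold change -1.79, SE 0.71, unadjusted p 0.0206, adjusted p 1.00). rasgrf1.L, its relative that binds GluN2B in mammals, had 750, 8 and 122 and then 1513, 571 and 706.

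Among 15 copies that handle glutamate and co-agonists 9 were above 0. slc6a9.L, the glycine transporter GlyT1, had 131, 10 and 83 NPC reads and 148, 724 and 247 IN reads, without overlap (log2 fold change 2.14, SE 1.33, adjusted p 1.00). shmt2.L, a glycine-forming enzyme of mitochondria, had 329, 620 and 369 reads and then 56, 180 and 172, also without overlap (log2 fold change -1.94, SE 1.06, adjusted p 1.00). Both genes were picked for low p, and 8.76% of all tested genes were without overlap in CPM. Among 12 copies of transcription regulators 6 were above 0. rest.L, a repressor of neuronal genes that silences GRIN1 outside neurons in mammals, had 62, 0 and 26 reads and then 130, 271 and 95, and tbr1.L, which activates Grin2b in mouse cortex, had 37, 755 and 198 and then 1, 112 and 83. For tbr1.L 19 of the 755 reads in NPC library 2 were coding, and for rest.L 3 of the 130 in IN library 1. None of these genes passed edgeR's test.

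Both grin1 copies lie near elk1, 1 of the genes the series names. On 8L the gap from grin1.L to elk1.L (1039937 to 1049684) is 165 kb with 10 annotated genes wholly inside it, and on 8S that from grin1.S to elk1.S (26221773 to 26230798) is 159 kb with 6. The gene loc100216141.L, which overlaps grin1.L, is not among the 10, while loc100216141.S is among the 6. The genes most like the summed grin1 level across the 6 libraries, by Pearson correlation of log2(CPM + 1) among 14124 candidates, were ralgps2.S (r = 0.989), prr16.L (0.984), c7orf60.L (0.983), palm.S (0.983) and ache.L (0.980). Each had its highest level in IN library 1, such as 83.6 CPM for ache.L, which encodes acetylcholinesterase, against 25.2 to 54.7 in the other libraries. With 6 libraries 115 candidates had r above 0.9, so these names only describe which genes shared the high library. Among the grin2 copies the likeness to grin1 was highest for grin2b.L (r = 0.854) and lowest for grin2a.L (-0.19).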

How the data were processed

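RNA was measured in 6 libraries, 3 NPC and 3 IN. The authors deposited whole-number read counts, not normalized: per the sheet names, STAR reads over mRNA and, from STAR and from TopHat2, reads over coding sequence. The submitters' processing notes also name HTSeq, DESeq2, Trimmomatic and FastQC without a role; the sources used here give no versions, strand setting or multi-mapping rules. Columns D and L were read as dark (NPC) and light (IN), and their numbers as those of the sample titles. Names and positions (1-based) came from the deposited annotation, per the file headers for build 9.1.

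STAR mRNA counts were filtered (filterByExpr, 19158 genes) and TMM-scaled, then entered the edgeR test (version 4.0.16, R 4.3.3; quasi-likelihood, robust, 2-sided, Benjamini-Hochberg over all genes, threshold 0.05). The SE is the fold change divided by the root of F. The common biological coefficient of variation was 110.9%. DESeq2 1.42.0 and limma-voom (limma 3.58.1) were alternatives, with other scalings, filters, both coding tables, summed copies and left-out libraries. The code was tested on simulated counts. Named list genes are up to 2 per list of lowest p with a mean of at least 5 CPM. Members and lists were chosen with earlier results of these data known. Coding counts and coding length are those of the longest transcript of each gene, while mRNA counts are per gene. Of the members only grin1.L has 2 annotated transcripts. Coding reads counted for another transcript of a gene would appear here as outside coding sequence, and their number was not examined. In 0.893% of gene and library values with mRNA reads, coding exceeded mRNA counts, in 0 of the members'. Depth was 8422751 to 9914191 counted reads per library.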

Additional observations from a re-analysis of the deposited data

How the results depend on the processing

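The count of 0 grin copies past the threshold held under all 20 alternatives, including both coding tables and summed copies. Thresholds of 0.01 and 0.1 were among them but could give no other count, given the smallest adjusted p below. In simulated counts with the estimated dispersion, the edgeR test recovered 2.02% of 4-fold and 43.4% of 16-fold changes. These rates were not worked out for the grin copies and cannot be carried over to them. The grin1 and grin2b copies had SEs of 0.52 to 0.64, against 1.41 at the median of all tested genes. Even so, the 95% interval of grin2b.L ran from -1.08 to 1.22, so a count of 0 does not show that levels were equal. With all libraries, 0 genes passed but for 16 without a filter (4 higher in IN, 12 lower) and 88 with DESeq2 (44 each way). When single libraries were left out, 0 to 2 passed (1 without NPC replicate 1, 2 without NPC replicate 3). The cause was not tested. In the main setting 658 genes had an unadjusted p under 0.05, and the smallest adjusted p was 0.638.

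Fold changes kept their sign under all 16 alternatives for grin2a.S (0.77 to 3.33), grin2d.L (-0.93 to -0.44) and grin2d.S (-3.54 to -1.59). Of 128 values of 8 copies, 9 turned. grin1.L was 0.21 without NPC replicate 2 and grin1.S -0.43 without IN replicate 1. grin2a.L was 0.63 with STAR and 0.63 with TopHat2 coding counts, and grin2b.S 0.078 and 0.063. grin2b.L was -0.090 in reads outside coding sequence, -0.16 without NPC replicate 3 and -0.27 without IN replicate 1, and its values without 1 library reached 0.40. Without 1 library grin1.L ran from -0.77 to 0.21 and grin1.S from -0.43 to 0.86. The main values of these copies were within 1 SE of 0, and the cause was not tested. Summed copies on coding counts, and reads outside coding sequence, were chosen after the data were seen.

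With the replicate number as a block, 0 genes passed (smallest adjusted p 0.637), and grin2d.S was at -3.23 (unadjusted p 0.022). Deviations from group means correlated at 0.115, 0.047 and 0.081 between NPC and IN libraries of the same number. Between others they correlated at -0.074 to -0.008, so each library correlated best with its own number. The coding share over all genes also went by number. It was 45.1% and 45.9%, 55.1% and 54.0%, and 61.0% and 60.9% for NPC and IN libraries 1 to 3. Both are hints from the data and not from the design, and the main and permutation tests do not use the number. The SE was 1.41 on the log2 scale at the median of all tested genes; it was 0.52 to 0.64 for the grin1 and grin2b copies and 0.90 to 1.45 for the grin2a and grin2d copies, whose values are the less precise.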
